A study of Mus musculus with 12 samples.

Results

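The 36 genes described here encode the enzymes of fatty acid and cholesterol synthesis and the proteins that govern them through the sterol regulatory element-binding proteins (SREBPs). They were taken as a list of named genes, and each was matched by its symbol to a row of the 21878 genes in the deposited table. All 36 were found, and they were set apart as 6 regulators, 14 genes of the fatty acid arm and 16 genes of the sterol arm. Alveolar type 2 (AT2) cells, the epithelial cells of the lung alveolus that make surfactant and divide after injury, had been sorted for RNA-seq from C57BL/6 mice aged 8 to 12 weeks, with 3 samples in each of 4 groups. The AT2-PBS and AT2-BLM groups came from Atg5 f/f mice, labelled wild type, that carried the floxed Atg5 alleles without Cre and had been given PBS or bleomycin (BLM, 2 U/kg into the trachea), a drug that injures the alveolar epithelium. The Atg5-/- AT2-PBS and Atg5-/- AT2-BLM groups came from Nkx2.1Cre; Atg5 f/f mice given the same agents. Atg5 is needed to form autophagosomes, and Nkx2.1 is active throughout the lung epithelium from early development, so that the deletion was neither limited to AT2 cells nor timed to the injury. The study sorted cells on day 14 after BLM as CD31-, CD34-, CD45-, Sca-1-, EpCAM+ and CD24-, and the sources used here give no day for Atg5-/- AT2-PBS and do not say whether a sample was 1 mouse or a pool.

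SREBPs are made as membrane proteins of the endoplasmic reticulum, where SCAP escorts them and the INSIG proteins hold the complex back while sterols are plentiful. When sterols run low, SCAP carries SREBP to the Golgi, proteases release its transcription factor part, and genes with a sterol regulatory element (SRE) are switched on, Insig1 among them. SREBP-1c, from Srebf1, is known mainly for fatty acid synthesis and SREBP-2, from Srebf2, mainly for cholesterol synthesis, while ChREBP, from Mlxipl, drives lipogenic genes in response to glucose. AT2 cells depend on this pathway for the saturated phosphatidylcholine of surfactant.

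The promoters of 4 members are shown because they show how differently the motifs of this pathway are spread over its genes, 3 of them called in these data (Srebf2, Insig1 and Fasn) and 1 not (Hmgcs1). They hold the 250 bases before the RefSeq transcription start (GRCm38.p6, a later build than the mm9 used for the reads), 5′ to 3′ on the strand of the gene, with motif matches in capitals. Srebf2 is at chr15:82147019-82147268 (+ strand), Hmgcs1 at chr13:119690101-119690350 (+ strand), Insig1 at chr5:28071162-28071411 (+ strand) and Fasn at chr11:120824548-120824797 (- strand).
Srebf2: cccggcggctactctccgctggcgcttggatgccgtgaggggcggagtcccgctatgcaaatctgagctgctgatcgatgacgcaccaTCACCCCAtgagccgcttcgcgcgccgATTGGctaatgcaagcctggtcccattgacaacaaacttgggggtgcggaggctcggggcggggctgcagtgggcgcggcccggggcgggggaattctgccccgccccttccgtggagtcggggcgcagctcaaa
Hmgcs1: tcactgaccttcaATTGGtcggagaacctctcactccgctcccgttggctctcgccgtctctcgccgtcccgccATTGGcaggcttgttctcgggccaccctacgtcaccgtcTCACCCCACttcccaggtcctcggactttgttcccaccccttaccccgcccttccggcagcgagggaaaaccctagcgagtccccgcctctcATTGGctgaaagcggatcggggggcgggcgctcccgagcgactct
Insig1: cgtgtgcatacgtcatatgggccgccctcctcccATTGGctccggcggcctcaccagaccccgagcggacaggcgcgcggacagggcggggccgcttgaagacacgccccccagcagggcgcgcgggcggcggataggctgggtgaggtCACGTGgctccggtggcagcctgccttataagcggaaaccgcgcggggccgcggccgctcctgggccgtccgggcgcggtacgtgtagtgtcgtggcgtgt
Fasn: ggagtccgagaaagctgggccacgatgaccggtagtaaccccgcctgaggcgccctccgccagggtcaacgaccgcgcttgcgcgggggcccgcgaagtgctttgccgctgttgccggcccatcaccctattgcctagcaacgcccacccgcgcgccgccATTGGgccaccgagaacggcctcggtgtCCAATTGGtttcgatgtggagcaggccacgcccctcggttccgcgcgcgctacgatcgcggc
Capitals mark an SRE in its all-C form (TCACCCCA) and a CCAAT box in Srebf2, a TCACNCCAC match that contains the all-C form and 3 CCAAT boxes in Hmgcs1, an E-box (CACGTG) and a CCAAT box in Insig1, and 3 CCAAT boxes in Fasn, of which a pair on opposite strands overlap. Both strands were searched, so a CCAAT box also appears as ATTGG.

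Across the 29 members with an entry, which had 40 promoters between them, TCACNCCAC matched 2 promoters (Hmgcs1 and Mlxipl), against 1.05% of all 32851 mouse promoters of this length. The all-C form TCACCCCA matched 2 (Hmgcs1 and Srebf2), against 1.34% of all. CACGTG matched 6, those of Dhcr7, Elovl5, Hsd17b7, Insig1, Mlxipl and Scap, against 6.02% of all. CCAAT matched 24 of the 40, against 33.8% of all. These matches describe the letters in the window and were not tested for binding.

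All values are FPKM as deposited, a read level scaled by transcript length and library size, summing to 390141 to 549169 per sample. The number of reads per sample is not known from these values. The most common ratio of low values between AT2-PBS replicate 1 and each other library was 1.02 to 1.15. Only ratios near 1 were searched, and 9.62% to 38.5% of them lay at the peak. A larger difference in depth could therefore not be found this way. Gene-level Atg5 FPKM overlapped between genotypes with PBS (6.72 to 10.1 in Atg5-/- AT2-PBS, 6.01 to 12.5 in AT2-PBS) and was 8.37 to 8.84 against 9.97 to 11.1 with BLM, and a gene-level value cannot show the loss of an exon, so the labels stand unchecked. Of 9 AT2 marker genes, Sftpc was listed at 0 in 11 of the 12 libraries, and the 9 together summed to 23198 FPKM or more in every library. Summed levels of 4 Y-linked genes were under 1 FPKM in 7 libraries and at 14.2 or above in 5 (2 of the Atg5-/- AT2-BLM group, 2 of AT2-PBS, 1 of AT2-BLM and 0 of Atg5-/- AT2-PBS), although the methods name male mice for the injury experiments.

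In AT2-PBS, the members spanned a wide range of levels per length. The fatty acid arm was led by Scd1, the stearoyl-CoA desaturase, at 2656 ± 592 FPKM (mean ± SD, n = 3) and by the very long chain elongase Elovl1 at 697 ± 102 FPKM. Reads of Scd1 and Scd2 could be split with their near-identical copies, so their levels are uncertain, and Scd3 and Scd4 were under 1 FPKM in every sample. Acly, which cleaves citrate to acetyl-CoA, followed at 215 ± 46.8 FPKM, Scd2 at 172 ± 32.1 FPKM and Fasn, the fatty acid synthase, at 129.99 ± 25.6 FPKM, whereas Acaca, which makes malonyl-CoA, was at 6.61 ± 1.89 FPKM. In the sterol arm Fdps, the farnesyl diphosphate synthase, was highest at 201 ± 41.3 FPKM and Hsd17b7, a reductase of the late pathway, lowest at 3.12 ± 1.64 FPKM. Of the regulators, Insig1 was at 69.9 ± 23.2 FPKM, Srebf1 at 58.5 ± 8.67 FPKM, Srebf2 at 52.8 ± 9.55 FPKM and Mlxipl at 1.89 ± 0.106 FPKM. Acacb, the mitochondrial acetyl-CoA carboxylase, and Elovl6, an elongase of C16 fatty acids, did not reach 1 FPKM in 3 samples and were not tested, which left 34 of the 36.

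**Figure D1:**
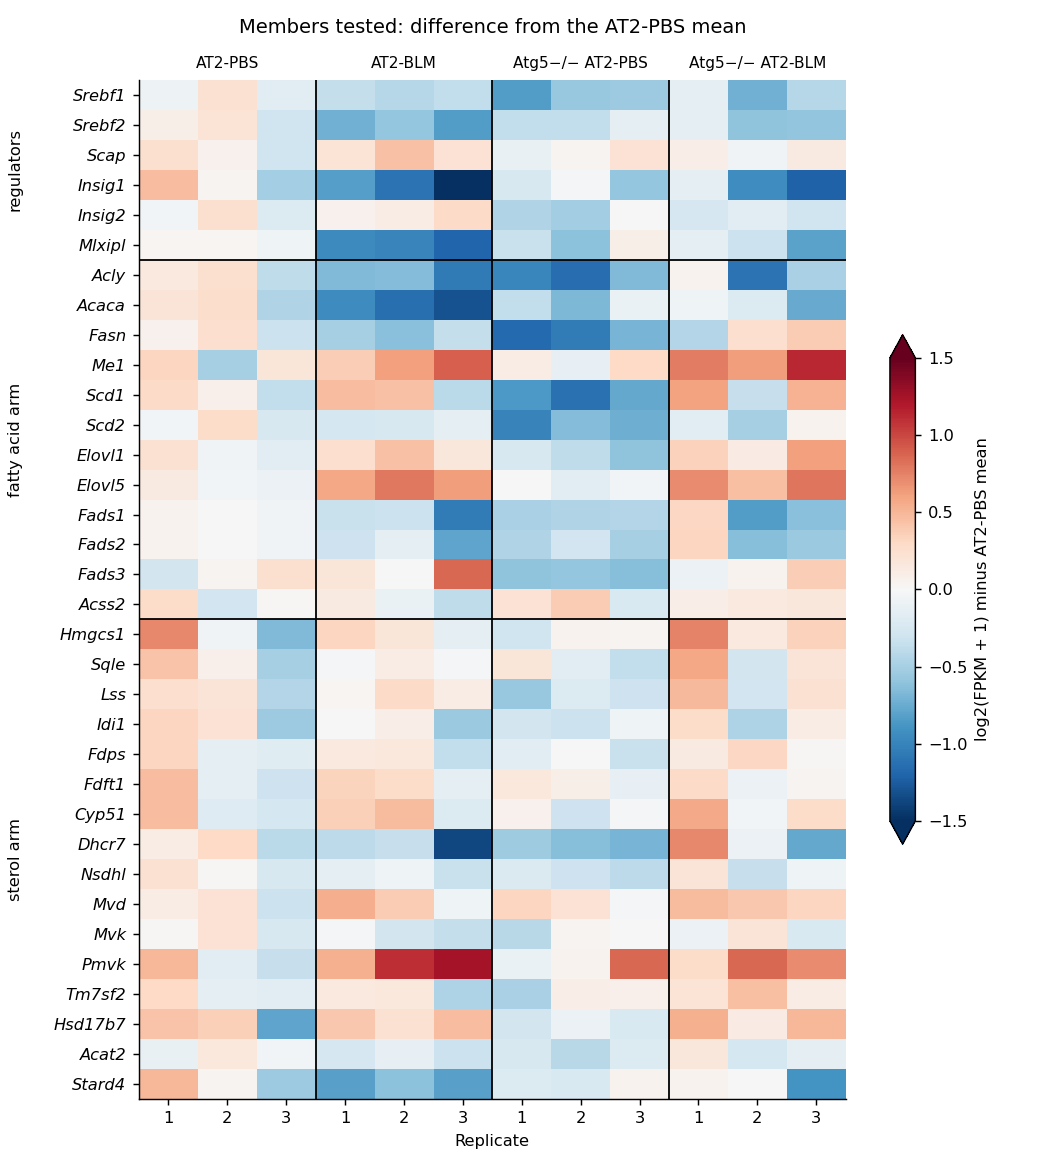
Colour gives log2(FPKM + 1) of each of the 34 tested members (rows, by arm) in each of the 12 samples (columns, by group and replicate) minus its mean over the 3 AT2-PBS samples, red for higher and blue for lower. Acaca and Mlxipl are blue in every AT2-BLM sample, Fasn, Scd1 and Scd2 in every Atg5-/- AT2-PBS sample, while the sterol arm changes mostly from replicate to replicate, as in AT2-PBS, where replicate 3 was the lowest for 15 of its 16 genes.

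BLM in Atg5 f/f mice went with lower levels of 3 regulators and of the enzymes that commit acetyl-CoA to fatty acids, and with 2 called genes in the sterol arm. A gene was called changed where limma's unadjusted p, from a fit of log2(FPKM + 1) over all 12 samples, was under 0.05 and the fold change at least 1.4. The study used the same cut-offs after DESeq normalization, so its calls can differ from these. Adjusted p-values over the 10675 genes tested (Benjamini-Hochberg) are given beside. By this rule 10 of the 34 members were called, 3 higher and 7 lower, and 6 had an adjusted p under 0.05. Of all genes tested 28.4% were called, 20.6% higher and 7.77% lower, and 17.8% had an adjusted p under 0.05, so that the number of members called was near the background while more of them were lower than higher. The log2 difference was positive for 15 of the 34, beside 63.8% of all genes, and the groups did not overlap for 3 members that were higher and 11 that were lower, beside 28.9% and 11.3% of all genes. In sorted cells measured in bulk, fewer cells of a type and less RNA per cell cannot be told apart.

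Among the regulators, Srebf2 was 55.7, 60.5 and 42.1 FPKM in AT2-PBS and 31.3, 34.7 and 28.7 FPKM in AT2-BLM. The groups did not overlap, and the level fell by 0.71 on the log2 scale (SE 0.17, adjusted p = 0.018), a 1.64-fold decrease. Insig1, itself a target of SREBP, was 93.4, 69.2 and 47.1 FPKM against 37.5, 30.8 and 22.7 FPKM. It fell by 1.15 (SE 0.31, adjusted p = 0.0246), or 2.23-fold, with every injured sample below every control. Mlxipl was 1.96, 1.95 and 1.77 FPKM against 0.494, 0.453 and 0.271 FPKM, a fall of 1.04 (SE 0.22, adjusted p = 0.00887) on a scale where the added 1 compresses changes at such low levels. Srebf1 was 55.3, 68.3 and 51.9 FPKM against 45.0, 43.0 and 44.6 FPKM. These ranges did not overlap either, but the log2 difference of -0.39 (SE 0.17, unadjusted p = 0.0368, adjusted p = 0.121) was under the fold criterion. Scap, the escort protein, was 17.7, 15.6 and 11.9 FPKM against 17.3, 20.6 and 17.5 FPKM (log2 difference 0.29, 95% interval -0.07 to 0.65), and neither it nor Insig2 was called.

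In the fatty acid arm, 3 of the 12 tested genes fell, 2 rose and 7 were not called. The 3 that fell catalyse successive steps from citrate to palmitate. Acly was 233, 250 and 162 FPKM in AT2-PBS and 133, 134 and 101 FPKM in AT2-BLM, a fall of 0.79 (SE 0.27, adjusted p = 0.0624). Acaca was 7.48, 7.91 and 4.43 FPKM against 2.87, 2.39 and 2.01 FPKM, and fell by 1.13 (SE 0.25, adjusted p = 0.0121), or 2.18-fold. Fasn was 134, 153 and 102 FPKM against 90.2, 82.8 and 99.5 FPKM. Its fall of 0.50 (SE 0.22, adjusted p = 0.14) only just met both criteria, although the 3 injured samples lay below all 3 controls.

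The elongase Elovl5, which extends polyunsaturated fatty acids, went the other way, from 54.1, 47.9 and 46.2 FPKM to 74.2, 86.4 and 76.8 FPKM (log2 fold change 0.67, SE 0.13, adjusted p = 0.00749). Me1, the malic enzyme that supplies NADPH, also rose (0.62, SE 0.23, adjusted p = 0.078), from 38.0 to 67.9 FPKM in AT2-PBS to 70.1 to 101 FPKM in AT2-BLM. Both calls depended on the scaling, that of Elovl5 being lost after quantile normalization (0.43) and that of Me1 after quantile (0.40) and median-ratio scaling (0.45). The abundant Scd1 was 3194, 2750 and 2023 FPKM against 3612, 3536 and 1974 FPKM, with overlapping groups and a log2 difference of 0.17 (95% interval -0.50 to 0.84). Scd2 was 165, 206 and 143 FPKM against 141, 143 and 154 FPKM, and Elovl1 was 811, 666 and 615 FPKM against 825, 942 and 777 FPKM, neither being called. The desaturases of polyunsaturated fatty acids showed no single pattern. Fads1 was 85.8, 82.9 and 80.0 FPKM against 65.8, 66.1 and 39.4 FPKM (log2 difference -0.57, SE 0.27, unadjusted p = 0.0545), and Fads2 was 46.5, 44.8 and 43.1 FPKM against 35.9, 40.3 and 25.3 FPKM (-0.42, SE 0.24, unadjusted p = 0.104). Both sets of ranges were apart but neither gene was called, and Fads3 was 23.9, 30.2 and 34.7 FPKM against 33.3, 29.2 and 54.0 FPKM.

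In the sterol arm, 1 of 16 genes rose, 1 fell and 14 were not called. Pmvk, the phosphomevalonate kinase, rose from 49.3, 30.9 and 26.8 FPKM to 50.2, 75.1 and 83.1 FPKM (log2 fold change 0.96, SE 0.30, adjusted p = 0.0446). Stard4, a cytosolic sterol carrier, fell by 0.75 (SE 0.29, adjusted p = 0.095), from 2.08 to 5.35 FPKM to 1.54 to 1.93 FPKM. For Hmgcs1 and Sqle, enzymes early and midway in the pathway, the 95% intervals of the log2 difference were -0.51 to 0.75 and -0.53 to 0.58, so a 1.4-fold change in either direction lies within both intervals. Dhcr7, the last reductase before cholesterol, had the lowest sample of all in AT2-BLM replicate 3 (4.31 FPKM) and a log2 difference of -0.70 (SE 0.36, unadjusted p = 0.0748).

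The median log2 change was -0.17 over the fatty acid arm and 0.00059 over the sterol arm, beside 0.17 over all tested genes, so that relative to all genes the arms were lower by a median of -0.34 and -0.17. The all-gene median moved to -0.015 after quantile normalization, which gave arm medians of -0.36 and -0.25, so the direction of the sterol median depended on the scaling. Quantile normalization called 1 member higher and 11 lower, beside 1235 higher and 1398 lower of all 10675 genes. Median-ratio scaling called 2 higher and 11 lower, beside 1467 and 1303 of all genes. In the main setting the sterol median also depended on single libraries, at 0.19 without AT2-PBS replicate 1 and -0.17 without AT2-PBS replicate 3. Without AT2-PBS replicate 2, only 6 members were called, with Acly (-0.67), Fasn (-0.37), Me1 (0.37) and Stard4 (-0.73) no longer so. Without AT2-BLM replicate 3, the calls of Acly (-0.66), Me1 (0.49) and Stard4 (-0.71) were also lost. The call of Stard4 was lost without AT2-PBS replicate 1 (-0.50) or AT2-BLM replicate 1 (-0.71) too, and that of Fasn without AT2-PBS replicate 1 (-0.46), AT2-BLM replicate 1 (-0.49) or 2 (-0.43), or Atg5-/- AT2-PBS replicate 1 or 2 (-0.50 each). Fads1 gained a call without AT2-BLM replicate 1 or 2 (-0.69 each) or Atg5-/- AT2-BLM replicate 1 or 2 (-0.57 each), and Dhcr7 without AT2-PBS replicate 3 (-0.90) or Atg5-/- AT2-BLM replicate 1 or 3 (-0.70 each). Leukocyte markers (10 genes) summed to 7.24 to 45.1 FPKM in AT2-PBS and 43.1 to 110 FPKM in AT2-BLM, with 2 of 10 higher without overlap. Markers of AT1 cells summed to 1866 to 2272 FPKM against 2352 to 3460 FPKM, with 4 of 5 higher without overlap, and 2 of 5 airway markers were lower. The part of these transcripts in the differences was not tested.

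**Figure D2:**
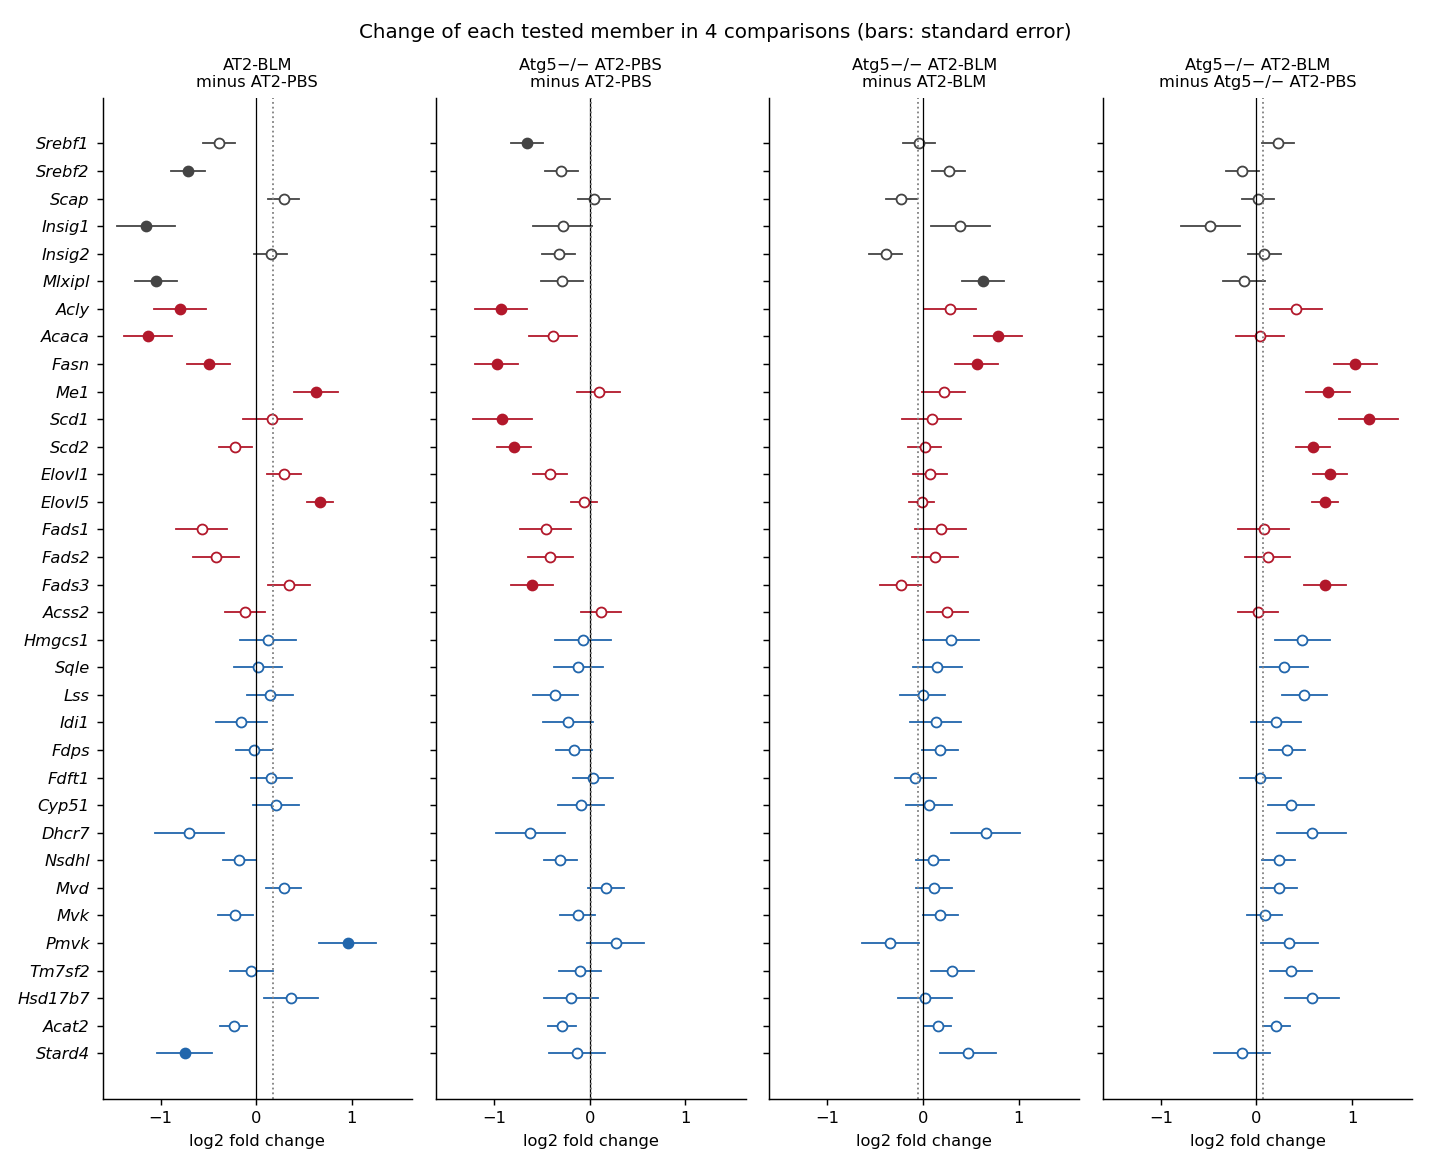
Each point is the log2 fold change of a tested member (rows: regulators in grey, fatty acid arm in red, sterol arm in blue) in 4 comparisons (panels), with its standard error as the bar, a filled point where the gene was called and a dotted line at the median of all tested genes. Filled points lie left of 0 for 6 members with Atg5 loss under PBS and right of 0 for 7 fatty acid members with BLM in Atg5-/- AT2 cells, and only Pmvk and Stard4 are filled in the sterol arm.

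Loss of Atg5 without injury went with lower levels of Srebf1 and of 5 fatty acid genes, and with no called gene in the sterol arm. Against the same AT2-PBS samples, so not independently of the comparison above, 6 of 34 members were called, 0 higher and 6 lower, 4 with an adjusted p under 0.05. Among all tested genes 19.3% were called, 14.1% higher and 5.16% lower, and 11.2% had an adjusted p under 0.05. A positive log2 difference was seen in 6 of the 34 members and 52.2% of all genes. The median change was -0.43 in the fatty acid arm and -0.13 in the sterol arm, beside 0.019 over all tested genes. The sterol median was 0.032 without AT2-PBS replicate 1 and -0.34 without AT2-PBS replicate 3, so its sign rested on the former.

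Srebf1 was 32.0, 38.8 and 39.4 FPKM in Atg5-/- AT2-PBS, below all 3 AT2-PBS samples, and fell by 0.65 (SE 0.17, adjusted p = 0.0205), or 1.57-fold. The other 5 regulators were not called. Srebf2 was 40.1, 40.2 and 47.1 FPKM and overlapped the controls (log2 difference -0.30, 95% interval -0.68 to 0.09). Insig1 was 56.9, 66.0 and 44.7 FPKM (-0.28, interval -0.95 to 0.38), Scap was 13.7, 15.3 and 17.5 FPKM (0.05, interval -0.31 to 0.41) and Mlxipl was 1.30, 0.885 and 2.08 FPKM (-0.29, interval -0.76 to 0.19).

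Fasn was lowest of all groups here, at 56.4, 61.6 and 78.7 FPKM, a fall of 0.97 (SE 0.22, adjusted p = 0.0121) or 1.96-fold from AT2-PBS, without overlap. Acly was 106, 95.04 and 133 FPKM, and fell by 0.93 (SE 0.27, adjusted p = 0.0462). Scd2 was 84.3, 108 and 102 FPKM, a fall of 0.79 (SE 0.18, adjusted p = 0.00944), and Scd1 was 1438, 1203 and 1534 FPKM, a fall of 0.91 (SE 0.31, adjusted p = 0.0876). In both desaturases every Atg5-/- sample lay below every control. Fads3 was 18.9, 19.3 and 18.5 FPKM, also without overlap (-0.61, SE 0.22, adjusted p = 0.114), a call that was lost without AT2-PBS replicate 3 (-0.49).

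The other fatty acid genes were not called. Acaca was 4.75, 3.65 and 5.94 FPKM and overlapped the controls (log2 difference -0.38, SE 0.25, unadjusted p = 0.154). Elovl1 was 587, 530 and 454 FPKM, below all controls but under the fold criterion (-0.41, SE 0.18, unadjusted p = 0.0403). Without AT2-PBS replicate 3 both were called (-0.61 and -0.49), as was Elovl1 without Atg5-/- AT2-PBS replicate 1 (-0.50). Elovl5 was 49.7, 44.2 and 48.0 FPKM (-0.06, interval -0.35 to 0.23). Fads1 at 58.7, 60.4 and 60.9 FPKM and Fads2 at 32.6, 36.5 and 31.4 FPKM lay below all controls as well, with log2 differences of -0.46 (SE 0.27, unadjusted p = 0.111) and -0.41 (SE 0.24, unadjusted p = 0.11). Counted by ranges alone, 8 of the 12 fatty acid genes were lower without overlap and 0 higher, where 10.8% of all tested genes were lower and 18.1% higher in this way. Elovl6, which was not tested, was 0.464, 0.420 and 0.517 FPKM here and 0 to 0.322 FPKM in the other 9 samples.

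The sterol arm gave 0 calls of 16 at these cut-offs, and 0 had an unadjusted p under 0.05 in limma. Its largest log2 difference was that of Dhcr7, at 8.43, 7.81 and 7.46 FPKM (-0.62, 95% interval -1.40 to 0.16), and Pmvk was 32.2, 35.8 and 63.6 FPKM (0.27, interval -0.37 to 0.92). After quantile normalization the all-gene median was -0.17 and 10 members were called lower, 1 of them in the sterol arm, beside 1587 of all 10675 genes.

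The Atg5-/- AT2-PBS libraries stood apart from the rest in markers of other cell types. Leukocyte markers summed to 577 to 790 FPKM there, 7 hepatocyte genes to 1770 to 3039 FPKM (3.34 to 479 FPKM in AT2-PBS), 6 fibroblast genes to 89.7 to 101 FPKM (3.49 to 12.8), 6 adipocyte genes to 32.2 to 51.7 FPKM (1.13 to 2.07) and 5 airway genes to 23132 to 84645 FPKM (4960 to 11756). All 10 leukocyte, 7 hepatocyte and 6 fibroblast markers and 4 of the 5 airway and 3 of the 6 adipocyte markers were higher without overlap, and 5 of the 9 AT2 markers were lower. The 3 adipocyte markers that were higher were Cidec, Fabp4 and Plin1. They were at 16.0 to 31.1, 13.2 to 16.8 and 0.0768 to 0.260 FPKM here. In AT2-PBS they were at 0.0592 to 0.842, 0.582 to 1.04 and 0 FPKM. Adipoq and Retn (both under 1 FPKM in these 3 libraries) and Cfd (0 to 2.51 FPKM) overlapped AT2-PBS. The part of these transcripts in the lower fatty acid genes was not tested.

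**Figure D3:**
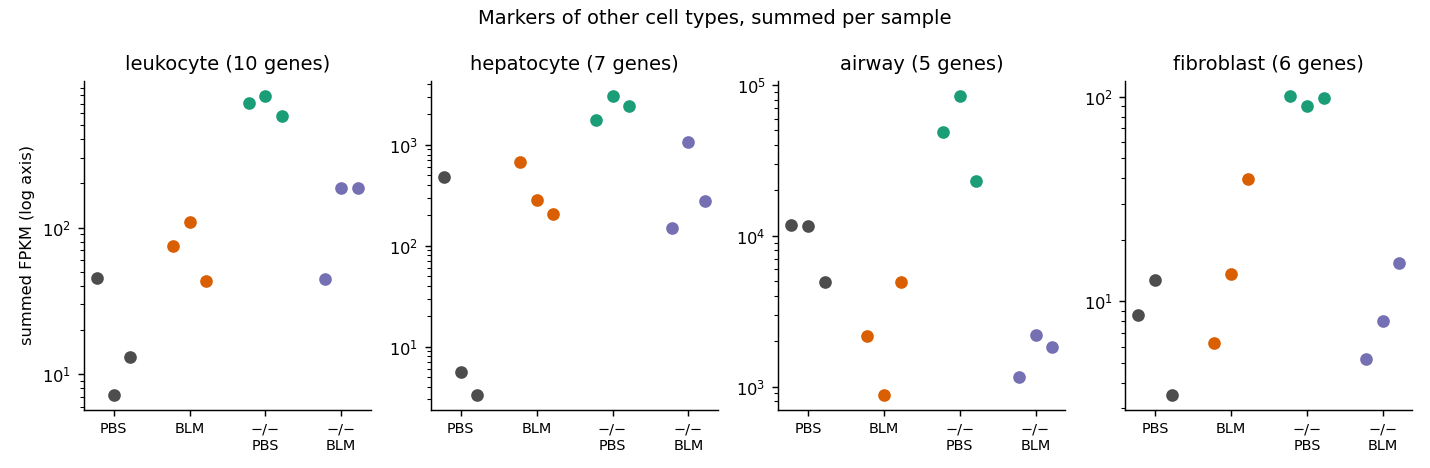
Points give the summed FPKM (log axis) of markers of leukocytes, hepatocytes, airway cells and fibroblasts in each of the 12 samples, by group. The 3 Atg5-/- AT2-PBS samples lie above all others in each panel, for leukocytes at 577 to 790 FPKM against at most 187 FPKM elsewhere.

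After BLM, few of these genes were called between the genotypes, and all were higher with Atg5 loss. Of the 34 members 3 were called and 0 had an adjusted p under 0.05 by limma's test, while 4 had an unadjusted p under 0.05. Among all tested genes 5.16% were called, 2.04% higher and 3.12% lower, and 0.00937% had an adjusted p under 0.05. The groups did not overlap for 2 members that were higher and 2 that were lower (Scap and Insig2), beside 4.91% and 8.49% of all genes. The arm medians were 0.15 for fatty acid and 0.14 for sterol genes, beside -0.049 over all tested genes. Without Atg5-/- AT2-BLM replicate 1 they were -0.0049 and 0.0047.

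Acaca, Mlxipl and Fasn were the 3 genes. Acaca was 6.12, 5.43 and 3.38 FPKM in Atg5-/- AT2-BLM, above all AT2-BLM samples (log2 fold change 0.78, SE 0.25, adjusted p = 0.607). Mlxipl was 1.63, 1.31 and 0.662 FPKM, likewise above all (0.62, SE 0.22, adjusted p = 0.618). Fasn was 94.3, 152 and 167 FPKM and overlapped AT2-BLM through replicate 1 (0.56, SE 0.22, adjusted p = 0.621). Mlxipl lost its call when Atg5-/- AT2-BLM replicate 1 was left out (0.48). Fasn lost its call when either AT2-BLM replicate 1 (0.56) or 2 (0.49), or either replicate 2 (0.47) or 3 (0.40) of Atg5-/- AT2-BLM, was left out.

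Atg5-/- AT2-BLM replicate 1 was the highest of its group for 4 of 6 regulators and 5 of 12 fatty acid genes. It was so for 35.7% of all tested genes. Replicate 3 was highest for 7 of the 12 fatty acid genes, and Fasn was lowest in replicate 1. Acly was 219, 97.1 and 151 FPKM, Insig1 60.8, 34.8 and 28.5 FPKM, Srebf1 52.3, 35.01 and 42.8 FPKM and Srebf2 47.3, 34.0 and 34.3 FPKM, with replicate 1 highest in each. Fads1 at 103, 46.1 and 53.3 FPKM and Fads2 at 56.1, 28.3 and 30.1 FPKM had the same order at the top. The sterol arm had 0 of 16 genes called here and 0 with an unadjusted p under 0.05, with 95% intervals that reached 1.44 for Dhcr7 and 1.10 for Stard4, and 13 of its log2 differences were positive, beside 43.1% of all tested genes.

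BLM in Atg5-/- mice went with higher levels of fatty acid genes and no called gene in the sterol arm. Compared with Atg5-/- AT2-PBS, 7 of 34 members were called, all higher and all in the fatty acid arm, 4 of them with an adjusted p under 0.05. Among all tested genes 18.4% were called, 7.66% higher and 10.7% lower, and 8.67% had an adjusted p under 0.05. All 12 tested fatty acid genes had a positive log2 difference, with a median of 0.65, as had 15 of 16 sterol genes, with a median of 0.30, beside 58% of all tested genes and a median of 0.063.

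Scd1 was 3965, 2054 and 3757 FPKM in Atg5-/- AT2-BLM, above every Atg5-/- AT2-PBS sample, and rose by 1.18 on the log2 scale (SE 0.31, adjusted p = 0.0333), or 2.26-fold. Fasn rose by 1.03 (SE 0.22, adjusted p = 0.0131), or 2.05-fold, also without overlap. Both tested elongases of the list rose. Elovl1 was 878, 754 and 1058 FPKM (0.77, SE 0.18, adjusted p = 0.0187) and Elovl5 was 81.2, 67.6 and 86.8 FPKM (0.71, SE 0.13, adjusted p = 0.00584). Me1 was 84.0 to 120 FPKM after 49.9 to 66.7 FPKM (0.75, SE 0.23, adjusted p = 0.0661), Fads3 was 27.5, 30.4 and 38.0 FPKM (0.72, SE 0.22, adjusted p = 0.0662) and Scd2 was 152, 120 and 176 FPKM (0.59, SE 0.18, adjusted p = 0.0589). Of the 34 members 11 were higher without overlap and 0 lower, beside 13.1% and 11.8% of all tested genes, and the call of Scd2 was lost without Atg5-/- AT2-BLM replicate 3 (0.47).

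Apart from Fasn, which rose here, the genes that had fallen with BLM in Atg5 f/f mice were not called in this comparison. The log2 difference was 0.42 for Acly (95% interval -0.18 to 1.01), 0.04 for Acaca (-0.51 to 0.59), -0.48 for Insig1 (-1.15 to 0.18), -0.15 for Srebf2 (-0.53 to 0.23) and -0.13 for Mlxipl (-0.61 to 0.34). Without Atg5-/- AT2-BLM replicate 1 Insig1 was called lower (-0.79, unadjusted p = 0.0189), and without replicate 2 of that group Acly was called higher (0.72). Of the sterol arm, Hmgcs1, Fdps, Tm7sf2 and Hsd17b7 were higher without overlap but not called, the greatest difference being that of Hsd17b7 (0.58, interval -0.03 to 1.196), which was called without AT2-PBS replicate 1 or 3 (0.58 each) or Atg5-/- AT2-BLM replicate 2 (0.71). Pmvk was 42.0, 63.4 and 57.2 FPKM and Scap was 16.1, 14.3 and 16.4 FPKM, both overlapping Atg5-/- AT2-PBS. Over the same samples all 10 leukocyte markers were lower without overlap (44.4 to 187 FPKM summed in Atg5-/- AT2-BLM), as were all 7 hepatocyte and 6 fibroblast and 4 of 5 airway markers. Markers of AT1 cells, the flat cells of the alveolus, were higher without overlap in 4 of 5 (1445 to 1738 FPKM summed, then 2175 to 2563 FPKM), as were 3 of the 9 AT2 markers. The part of these transcripts in the higher fatty acid genes was not tested.

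**Figure D4:**
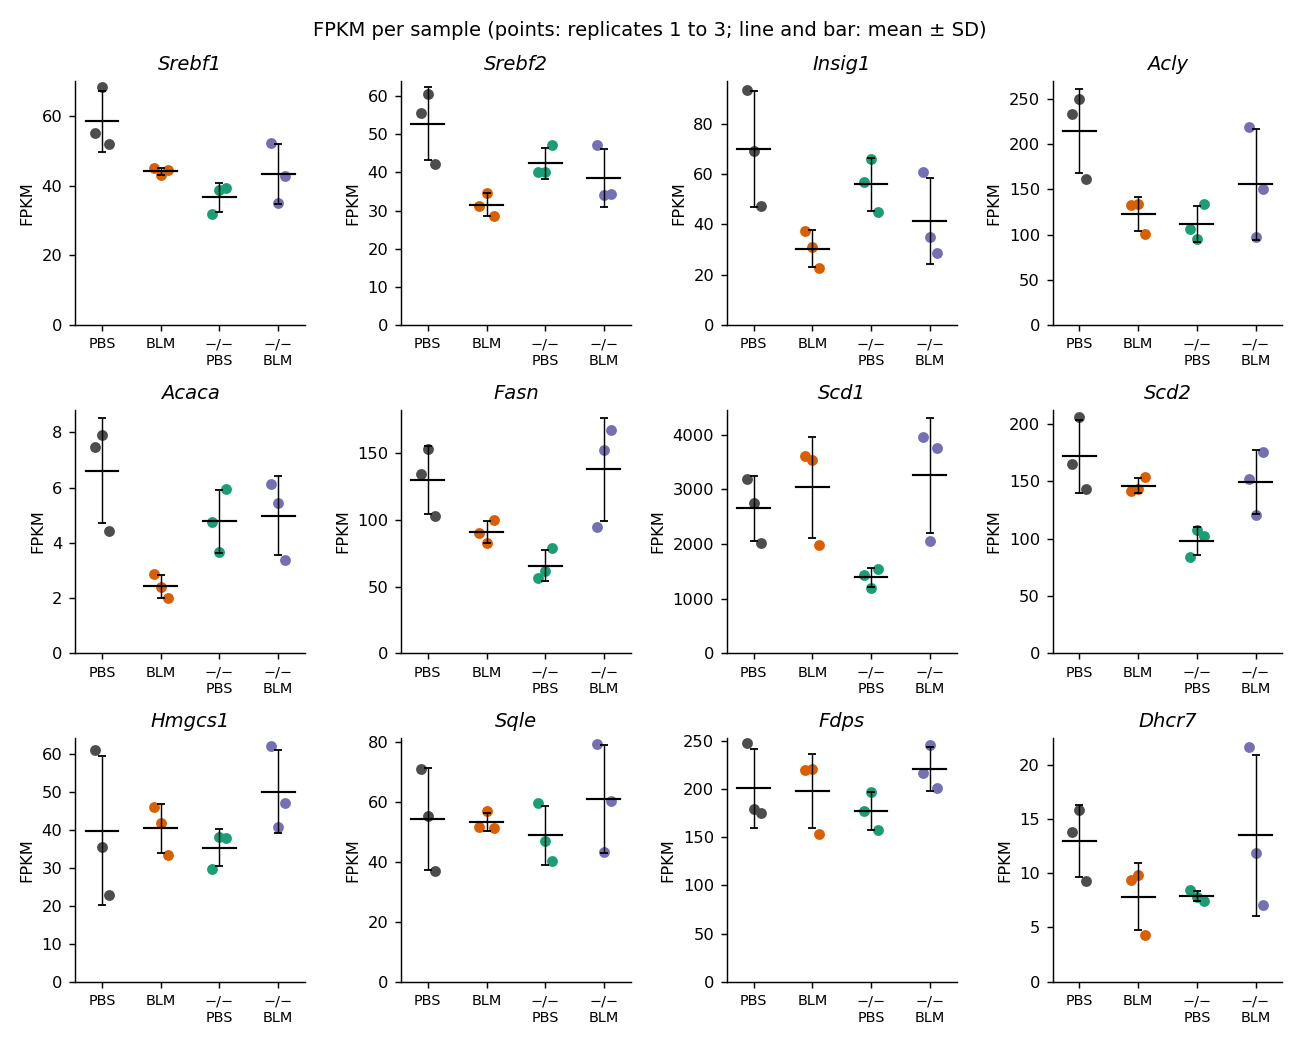
FPKM of 12 members (panels) in each sample (points, replicates 1 to 3 from left to right within a group), with the group mean as a line and its SD as a bar. Fasn, Scd1 and Scd2 are lowest in Atg5-/- AT2-PBS, Acaca and Insig1 are lowest in AT2-BLM, and for Hmgcs1, Sqle and Fdps the groups overlap AT2-PBS throughout.

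Whether BLM acted differently in the 2 genotypes was tested by the interaction, the BLM effect in Atg5-/- AT2 cells minus that in Atg5 f/f AT2 cells. It was higher for 9 of 34 members and lower for 0, where 5.02% of all tested genes were called higher and 15.2% lower (20.2% in either direction). Fasn had the largest difference, 1.53 on the log2 scale (SE 0.32, adjusted p = 0.013), since it was lower with BLM in Atg5 f/f mice and higher with BLM in Atg5-/- mice, and was the only member with an adjusted p under 0.05, beside 7.89% of all genes. Dhcr7 (1.28, SE 0.51), Acly (1.21, SE 0.38), Acaca (1.16, SE 0.36), Scd1 (1.01, SE 0.44), Mlxipl (0.91, SE 0.31), Scd2 (0.81, SE 0.25), Srebf1 (0.61, SE 0.23) and Srebf2 (0.56, SE 0.25) had adjusted p-values from 0.0696 (Acaca) to 0.218 (Srebf2).

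Dhcr7 was the only sterol gene called for the interaction, and its replicates were far apart, at 21.6, 11.8 and 7.03 FPKM in Atg5-/- AT2-BLM. All 12 fatty acid genes had a positive interaction with a median of 0.59, as had 13 of the 16 sterol genes with a median of 0.35, beside 42.5% of all tested genes and a median of -0.091. Elovl5 and Me1, which rose with BLM in both genotypes, had interactions of 0.05 (95% interval -0.37 to 0.46) and 0.12 (-0.58 to 0.83). Among the called genes, Fasn, Acly, Scd1, Scd2 and Srebf1 had their lowest group mean in Atg5-/- AT2-PBS, and Acaca, Mlxipl, Srebf2 and Dhcr7 in AT2-BLM. Scd1 averaged 2656 FPKM in AT2-PBS, 3041 in AT2-BLM, 1392 in Atg5-/- AT2-PBS and 3259 in Atg5-/- AT2-BLM. Scd2 averaged 172, 146, 98.0 and 149 FPKM in the same order. The part of the other cell types' transcripts in the Atg5-/- AT2-PBS levels was not tested. Leaving out either AT2-PBS replicate 2 or replicate 1 of the Atg5-/- AT2-BLM group left 5 members called. Both omissions ended the calls of Srebf1 (0.49 and 0.47), Srebf2 (0.46 and 0.41), Scd1 (0.97 and 0.84) and Dhcr7 (1.13 and 0.89). Those of Fasn, Acly, Acaca, Mlxipl and Scd2 held without any single library, whereas Scd1, Srebf2, Dhcr7 and Srebf1 lost theirs without 7, 7, 3 and 3 of the 12 libraries in turn, the values then ranging from 0.72 to 1.04, from 0.41 to 0.56, from 0.89 to 1.13 and from 0.47 to 0.52.

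In 3 of the 4 groups a single library was highest or lowest for most genes of the sterol arm. AT2-PBS replicate 3 was the lowest of its group for 15 of the 16 sterol genes, all 6 regulators and 9 of the 12 fatty acid genes, where this library was the lowest for 35.9% of all tested genes. AT2-BLM replicate 3 was lowest for 12 of 16 sterol genes (24.9% of all tested genes), and Atg5-/- AT2-BLM replicate 1 was highest for 12 of 16 (35.7%). Atg5-/- AT2-PBS had no such library, with replicates 1, 2 and 3 lowest for 6, 4 and 6 of the 16. The median difference of the sterol arm from the AT2-PBS mean, on the log2 scale, was 0.33, 0.056 and -0.34 in the AT2-PBS replicates, 0.089, 0.16 and -0.26 in AT2-BLM, -0.23, -0.13 and -0.099 in Atg5-/- AT2-PBS, and 0.28, -0.018 and 0.12 in Atg5-/- AT2-BLM. The groups overlapped in this measure, and AT2-PBS alone spanned the values of all the others. The fatty acid arm was 0.14, 0.022 and -0.13 in AT2-PBS, -0.065, -0.12 and -0.37 in AT2-BLM and 0.20, -0.077 and 0.26 in Atg5-/- AT2-BLM, but -0.47, -0.51 and -0.55 in Atg5-/- AT2-PBS, below the 9 other samples.

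The libraries were also split by the level of 4 Y-linked genes, after seeing the data. A fit with groups and Y-linked status compared the 7 libraries with a summed level under 1 FPKM with the 5 others. In the 7, 15 of the 16 sterol genes were higher, beside 4994 of all 10675 tested genes. Their median difference was 0.33 on the log2 scale, beside -0.020 over all tested genes. In 3 groups the split set 1 library against 2, with AT2-PBS replicate 1, AT2-BLM replicate 3 and Atg5-/- AT2-BLM replicate 1 alone. The last 2 are libraries named above, so Y-linked status and deviations of single libraries cannot be told apart. The 2 AT2-PBS libraries high in Y-linked genes themselves had sterol medians of 0.056 and -0.34. Hmgcs1 (0.65, SE 0.17), Idi1 (0.52, SE 0.18), Cyp51 (0.59, SE 0.13) and Dhcr7 (0.77, SE 0.22) were called higher, where 2.41% of all tested genes were called higher and 3.57% lower, and 0 sterol genes had an adjusted p under 0.05 by limma. Of the regulators Insig1 was called higher (0.73, SE 0.16, adjusted p = 0.157). In the fatty acid arm Acly (0.49), Scd1 (0.60), Fads1 (0.61) and Fads2 (0.52) were called higher and Fads3 lower (-0.50). All 3 Atg5-/- AT2-PBS libraries were low in Y-linked genes, so there the status and the group cannot be told apart. Whether the split marks the sex of the mice or another difference between preparations was not tested.

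**Figure D5:**
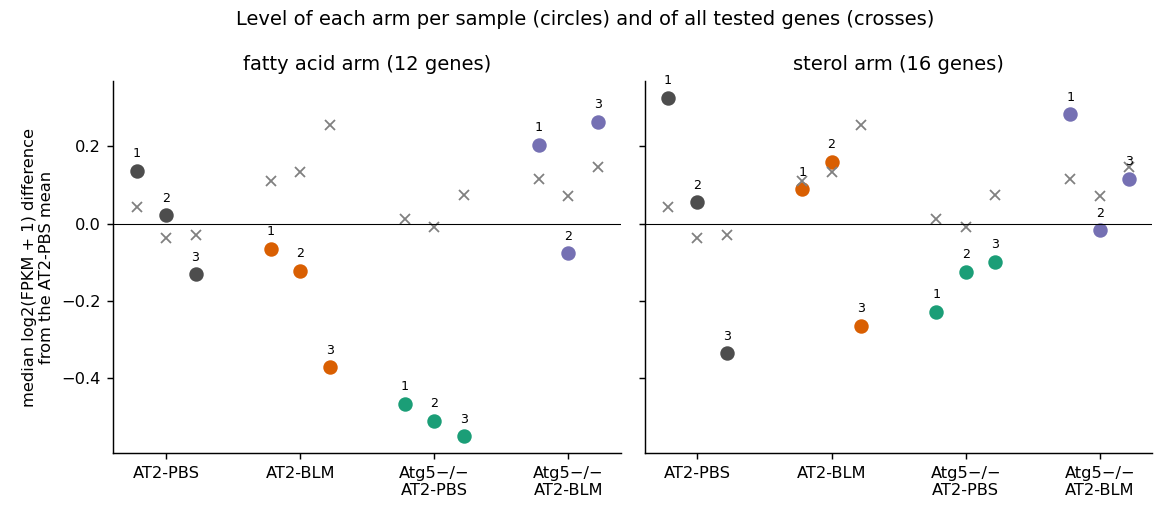
Circles give, for each sample, the median over the genes of an arm of log2(FPKM + 1) minus its AT2-PBS mean (left, 12 fatty acid genes; right, 16 sterol genes), numbered by replicate, and crosses give the same over all tested genes. The 3 Atg5-/- AT2-PBS samples sit between -0.47 and -0.55 in the fatty acid arm, below all others, whereas the sterol arm spreads from -0.34 to 0.33 within AT2-PBS alone.

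Other genes of these pathways were taken from 4 further lists. Their counts stand beside the shares of all tested genes called higher and lower. These were 20.6% and 7.77% with BLM in Atg5 f/f mice, and 14.1% and 5.16% for Atg5 loss with PBS. They were 2.04% and 3.12% for Atg5 loss with BLM, 7.66% and 10.7% with BLM in Atg5-/- mice, and 5.02% and 15.2% for the interaction. Of 8 tested genes of sterol synthesis and uptake outside the members, 1 was called lower with BLM in Atg5 f/f mice, 1 higher for Atg5 loss with BLM and 1 higher with BLM in Atg5-/- mice, and 0 had an adjusted p under 0.05 in limma, where 1 unadjusted p was under 0.05 in each of these comparisons. Of 11 tested fatty acid genes, 3 were higher and 4 lower with BLM in Atg5 f/f mice, among them Thrsp, a lipogenic regulator, from 11.03 to 30.3 FPKM to 1.22 to 5.10 FPKM (-2.32, adjusted p = 0.00714), Hsd17b12, a reductase of chain elongation (0.87, adjusted p = 0.00409), and Aacs, the acetoacetyl-CoA synthetase (-0.74, adjusted p = 0.0475). With Atg5 loss under PBS 1 rose, the elongase Elovl2 (1.16, adjusted p = 0.00862), and 2 fell, with Hacd3, a dehydratase of elongation, at -0.64 (adjusted p = 0.0478). With BLM in Atg5-/- mice 1 rose and 2 fell, Thrsp again at -1.90 (adjusted p = 0.0226). For Atg5 loss with BLM 1 fell, and the interaction was higher for 3 and lower for 2, none of these with an adjusted p under 0.05.

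Of 13 genes that process SREBP, 0 were called with BLM in Atg5 f/f mice by limma (2 had an unadjusted p under 0.05), beside 28.4% of all tested genes. With Atg5 loss under PBS 5 fell, beside 5.16% of all tested genes. The ubiquitin ligase genes Rnf139 (-0.74, adjusted p = 0.0249) and Rnf145 (-0.61, adjusted p = 0.0393) were among the 5. With BLM in Atg5-/- mice 2 rose, and Atg5 loss with BLM and the interaction gave 0 calls and 0 unadjusted p-values under 0.05 in limma. Of 7 genes of the liver X receptors and their targets, only the sterol exporter Abcg1 had an adjusted p under 0.05, in 3 comparisons, and 1 more gene was called lower with BLM in Atg5-/- mice. It was 32.3, 37.7 and 47.9 FPKM in Atg5-/- AT2-PBS and 0.402 to 4.17 FPKM in the other 9 samples, a log2 fold change of 4.47 (adjusted p = 3.36e-05) for Atg5 loss under PBS and -3.48 (adjusted p = 0.000394) for BLM in Atg5-/- mice. Abcg1 is also abundant in alveolar macrophages, and the leukocyte markers were high in the same 3 libraries, whose part in this difference was not tested.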

How the data were processed

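RNA was extracted from sorted AT2 cells, and stranded mRNA libraries of 12 samples (4 groups of 3, named as biological replicates in the design) were sequenced. The authors trimmed low-quality reads (Trimmomatic 0.36), mapped the rest to mm9 (STAR in the methods, HISAT2 2.2.1.0 and HTSeq 0.9.1 in the submitters' processing notes) and deposited FPKM values per gene from Cufflinks (2.2.1). Their methods add a DESeq normalization, and whether the FPKM columns include it is not given in the sources used here. The columns sum to different totals, read depth is unknown, and no counting interval is given. An exact 0 may be a failed estimate, as for Sftpc.

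Here, log2(FPKM + 1) was computed (pseudocount 1), and the 10675 of 21878 rows that reached an FPKM of 1 in 3 samples or more entered a linear model in limma (3.58.1, under R 4.3.3), using lmFit followed by eBayes and its mean-variance trend, over all 12 samples, with 5 contrasts: BLM in each genotype, Atg5 loss with each agent, and their interaction. Fold changes are on the log2(FPKM + 1) scale and understate changes of low genes. For a call, p before adjustment had to be under 0.05 and the fold 1.4 or more. Adjusted p-values are Benjamini-Hochberg over all tested genes. An exact permutation test of 3 against 3 samples could not go below p = 0.1 (two-sided) and was not used. The fit was tested on simulated data first.

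The members and all gene lists were chosen with earlier results of these data known. FPKM in all 12 samples is given for members with an adjusted p under 0.05 in any contrast and for Srebf1, Srebf2, Insig1 and Scap. It is also given for Acly, Acaca and Fasn, which the study names, and for Fads1, Fads2 and Fads3, since the study names Fads without a number. Of the other lists, at most 3 genes per contrast with an adjusted p under 0.05 are named. Alternatives were another pseudocount (0.1), no filter, quantile normalization, median-ratio scaling, a replicate block, a fit of only the compared groups, no trend, adjusted p-values and leaving out each sample, and, chosen after seeing the data, Y-linked status as a covariate. Motifs were searched with Python 3.11.15 in RefSeq promoters, which covered 29 of the 36 members.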

Additional observations from a re-analysis of the deposited data

Results flagged for a closer look

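For 9 members the effect of BLM differed between genotypes by the interaction term of the fit, and each was higher in Atg5-/- AT2 cells, where 5.02% of all tested genes were called in that direction. On the log2 scale the difference (BLM effect in Atg5-/- AT2 cells minus BLM effect in Atg5 f/f AT2 cells) was 1.53 for Fasn, 1.28 for Dhcr7, 1.21 for Acly, 1.16 for Acaca, 1.01 for Scd1, 0.91 for Mlxipl, 0.81 for Scd2, 0.61 for Srebf1 and 0.56 for Srebf2. Only that of Fasn had an adjusted p under 0.05 (0.013 in limma). The Atg5-/- AT2-PBS samples, which enter each of these differences, had leukocyte marker sums of 577 to 790 FPKM against 7.24 to 187 FPKM in the other groups. Airway markers summed there to 23132 to 84645 FPKM (4960 to 11756 in AT2-PBS) and hepatocyte markers to 1770 to 3039 FPKM (3.34 to 479). Fibroblast markers summed to 89.7 to 101 FPKM (3.49 to 12.8). Of 9 AT2 markers 5 were lower than in AT2-PBS without overlap and 0 higher. The part of these transcripts was not tested.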

How the results depend on the processing

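Over 60 pairs of a member and a comparison, 21 settings (20 for the interaction) gave 1107 values with the same direction and side of the criterion, 72 that lost the call, 44 that gained it and 26 that changed sign. No called value changed sign. With adjusted p-values, the members called numbered 6 for BLM in Atg5 f/f mice (10 in the main setting), 4 for BLM in Atg5-/- mice (7), 0 for Atg5 loss with BLM (3) and 1 for the interaction (9). Quantile normalization gave 10 calls for Atg5 loss with PBS (6), all lower, beside 1587 of all 10675 genes called lower. It gave medians of -0.36 (fatty acid) and -0.25 (sterol) for BLM in Atg5 f/f mice, and 0.82 and 0.58 for the interaction. Median-ratio scaling gave a fatty acid median of -0.32 for BLM in Atg5 f/f mice, and no filter one of 0.50 for BLM in Atg5-/- mice, with 2 more genes in the list.

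Y-linked status in the fit was an alternative added after seeing the data. With it, 14 members were called for Atg5 loss with PBS, all lower. Those called for Atg5 loss with BLM, BLM in Atg5-/- mice and the interaction were 6, 16 and 21, all higher. Of all 10675 genes 599 were called lower for Atg5 loss with PBS, and 324, 806 and 642 higher in these 3 comparisons. In the sterol arm 4, 3, 9 and 9 of the 16 genes were called in these 4 comparisons, where the main fit called 0, 0, 0 and 1. The main fit's lack of sterol calls therefore depended on leaving this covariate out. For BLM in Atg5 f/f mice 13 members were called, 4 higher and 9 lower, beside 2292 and 888 of all genes. Of these 13, 3 were in the sterol arm (2 in the main fit). All 3 Atg5-/- AT2-PBS libraries were low in Y-linked genes, so their adjustment rests on the split within the other groups. The fatty acid medians were then -0.68 for Atg5 loss with PBS, 0.30 for Atg5 loss with BLM and 0.92 for the interaction, and the sterol medians -0.40 for Atg5 loss with PBS, 0.54 for BLM in Atg5-/- mice and 0.69 for the interaction. The cause was not tested. The covariate ended the calls of Fasn for BLM in Atg5 f/f mice (-0.40) and for Atg5 loss with BLM (0.46), and of Fads3 for Atg5 loss with PBS (-0.27) and for BLM in Atg5-/- mice (0.38).

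Leaving out each sample gave 6 to 12 calls for BLM in Atg5 f/f mice, 6 to 9 for Atg5 loss with PBS, 2 to 4 for Atg5 loss with BLM, 7 to 10 for BLM in Atg5-/- mice and 5 to 13 for the interaction. The all-gene counts in the same order were 2621 to 3170, 1578 to 2243, 371 to 801, 1533 to 2321 and 1662 to 2491. The fatty acid median then ranged from -0.0049 to 0.31 for Atg5 loss with BLM and from 0.48 to 0.79 for the interaction. The sterol median ranged from -0.17 to 0.19 for BLM in Atg5 f/f mice, -0.34 to 0.032 for Atg5 loss with PBS, 0.0047 to 0.21 for Atg5 loss with BLM, 0.19 to 0.34 for BLM in Atg5-/- mice and 0.18 to 0.51 for the interaction. The correlations of deviations between samples with the same title number ran from -0.24 to 0.23, and in no comparison were all over 0.1. With 3 samples per group they cannot show whether samples were paired, and the main fit treated them as unpaired. With the replicate block, 12, 7, 4, 8 and 10 members were called for BLM in Atg5 f/f mice, Atg5 loss with PBS, Atg5 loss with BLM, BLM in Atg5-/- mice and the interaction, and none of the calls was lost.

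Values near 0 that were not called changed sign in some settings. For Scd1 with BLM in Atg5 f/f mice these were -0.14 (quantile), -0.00824 (median-ratio) and -0.0325 (Y-linked covariate), with -0.016 to 0.45 when a sample was left out. For Scap with Atg5 loss under PBS they were -0.061 (quantile) and -0.069 (covariate), with -0.10 to 0.17, and for BLM in Atg5-/- mice 0.00590 for Insig1 and 0.028 for Srebf2 (covariate), 0.011 (quantile) and 0.019 (covariate) for Mlxipl, with -0.30 to 0.055, and -0.0238 (median-ratio) for Acaca, with -0.11 to 0.25. Leaving out a sample gave -0.11 to 0.0051 for Elovl5 and -0.022 to 0.53 for Pmvk with Atg5 loss under PBS, and -0.030 to 0.15 for Elovl5 and -0.038 to 0.37 for Me1 in the interaction.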
